A study of Mus musculus with 11 samples.

Results

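Untreated KP1 cells are described here from the 2 RNA sequencing libraries of the study that were labelled as untreated, out of 5 bulk libraries of this line and 11 samples in the whole series. KP1 is a mouse small cell lung cancer (SCLC) line, and the study describes it as an Rb/p53 mutant line of the SCLC-A subtype. The cells were cultured in RPMI-1640 medium with serum. Their treatment label reads untreated, while the collection text they share with the irradiated samples speaks of radiation, so that their state rests on the treatment label. The libraries carry the replicate numbers 2 and 3 and are recorded at 24 h, the time also recorded for the irradiated samples. Nothing states that they came from separate cultures, so each SD below measures only the spread between these libraries, which may be technical. All genes were members, none was chosen by its level, and no library of irradiated cells entered any value. With 1 group there was no contrast and no test.

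SCLC is a cancer of pulmonary neuroendocrine character. Neuroendocrine cells of the airway are rare epithelial cells that resemble neurons: they store peptides and amines in dense-core granules and release them on stimulation. The transcription factor INSM1 takes part in this program, and REST, a repressor of neuronal genes, is usually off where the program is on. Granules carry chromogranins such as chromogranin A (Chga), small vesicles carry synaptophysin (Syp), and airway neuroendocrine cells are known for the calcitonin gene (Calca), which encodes both calcitonin and the peptide CGRP.

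Levels are given as TPM, an abundance scaled for transcript length that sums to the same total in each library, so genes can be compared with each other. A gene was called expressed at 1 TPM or more in both libraries, silent where it was not expressed and held at most 3 estimated reads in each library, and low otherwise. Of 21830 protein-coding genes, 11751 were expressed, which is the background of 53.8% for every list below, and 6431 (29.5%) were silent. The libraries held 31036317 and 26432466 estimated reads. At this depth 3 reads on a coding transcript of median length were worth 0.124 TPM in replicate 2 and 0.137 TPM in replicate 3. The counts and these limits cover counting error only.

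The 4 neuroendocrine marker genes named for these cells were all expressed. They were chosen with results of these data known, so their levels are a description of the line and no independent check of its label. Chga stood at 437 TPM in replicate 2 and 396 TPM in replicate 3, a mean of 416 ± 28.8 TPM (SD, n = 2), which ranked 266 among protein-coding genes. Insm1 stood at 263 and 369 TPM, a mean of 316 ± 74.5 TPM (SD, n = 2) and rank 389. Calca and Syp lay lower and close to each other. Calca stood at 56.2 and 85.9 TPM (mean 71.0 ± 21.03, SD, n = 2, rank 2791), and Syp at 68.8 and 54.5 TPM (mean 61.7 ± 10.1, SD, n = 2, rank 3257). The order of these last 2 genes was opposite in the libraries, so their levels did not differ beyond their spread, whereas Chga and Insm1 lay above both in each library.

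**Figure D1:**
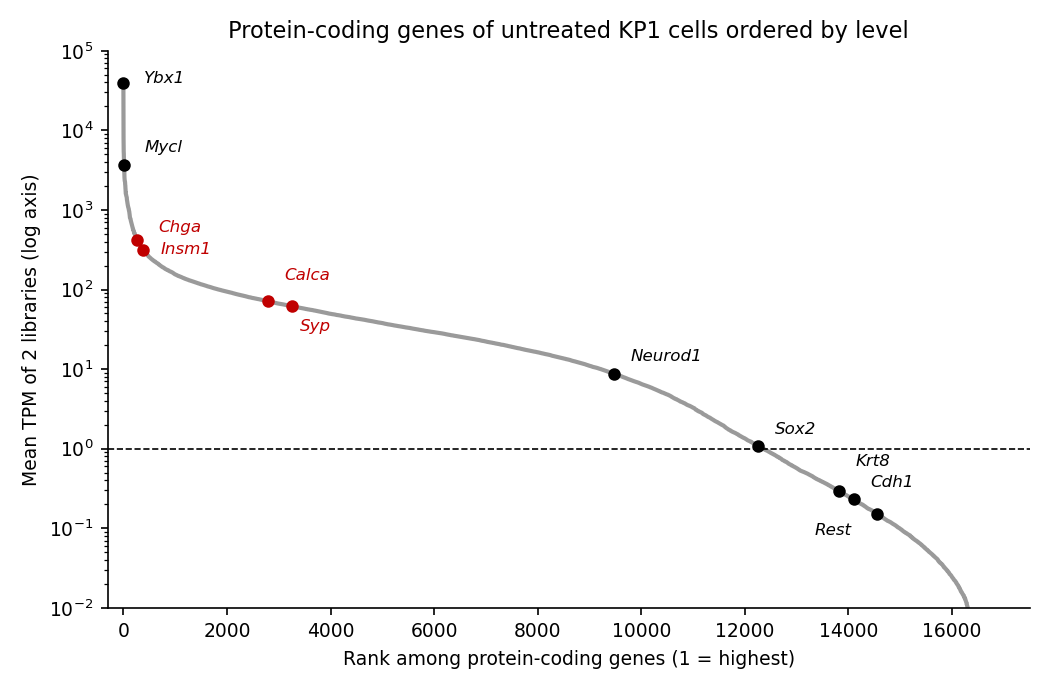
Mean TPM of the 2 untreated libraries (log axis) against rank for protein-coding genes, with the 4 neuroendocrine markers in red, other named genes in black and a dashed line at 1 TPM. Chga (416 TPM) and Insm1 (316 TPM) lie on the steep left part of the curve, Calca (71.0 TPM) and Syp (61.7 TPM) on its shoulder, and Rest (0.150 TPM), Cdh1 (0.231 TPM) and Krt8 (0.294 TPM) below the line.

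Calca (ENSMUSG00000030669, chromosome 7, 114631478 to 114636357, minus strand, GRCm38) can be read out as either peptide, because its transcripts end in alternative coding exons. The coding part of each of these exons is given here on the sense strand, 5′ to 3′, with runs of adjacent codons for lysine or arginine in capitals; prohormone convertases cut peptide precursors at such runs. The calcitonin exon covers chr7:114633605-114633785 and the CGRP exon chr7:114632443-114632599.
calcitonin exon: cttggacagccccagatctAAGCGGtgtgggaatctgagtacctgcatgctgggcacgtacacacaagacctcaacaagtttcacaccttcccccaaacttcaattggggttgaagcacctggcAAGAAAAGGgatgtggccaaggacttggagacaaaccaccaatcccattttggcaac
CGRP exon: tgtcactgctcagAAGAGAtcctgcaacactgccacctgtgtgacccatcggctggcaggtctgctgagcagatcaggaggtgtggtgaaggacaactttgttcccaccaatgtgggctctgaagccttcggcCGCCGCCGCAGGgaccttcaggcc
Each exon held 2 such runs, one before and one after the mature peptide. Transcripts with the CGRP exon carried 40.9 TPM in replicate 2 and 60.8 TPM in replicate 3, which was 72.9% and 70.8% of the gene. Transcripts with the calcitonin exon carried 8.48 and 14.5 TPM, or 15.1% and 16.9%. The remaining 12% and 12.4% fell on a transcript with neither exon. The CGRP share was thus above the calcitonin share in both libraries. In replicate 3, 10.6 TPM of the CGRP share came from a transcript annotated as a retained intron, which stood at 0 in replicate 2. These shares rest on 381 and 522 estimated reads for the whole gene and on the way Salmon divides reads between overlapping transcripts. The neighbouring gene for the second form of CGRP, Calcb, was at 0 reads in both libraries.

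Among 20 lineage factors of neuroendocrine and SCLC cells, 19 were expressed and 10 stood at 100 TPM or more in both libraries, with a median of 124 TPM for the list beside 3.48 TPM for all protein-coding genes. Mycl, the MYC family member known to be amplified or highly expressed in SCLC, stood at 3569 and 3837 TPM (mean 3703 ± 189, SD, n = 2) and ranked 12 among all protein-coding genes. Nfib, a factor known to promote metastasis of mouse SCLC, stood at 1642 and 1272 TPM. Mycl lay above Nfib in both libraries, and they held the first places of the list.

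Further factors lay lower, some between 100 and 500 TPM in both libraries and others below 100 TPM in at least 1 library. Sox11, a SoxC factor of developing neurons, stood at 468 and 270 TPM and Sox4, its relative, at 178 and 147 TPM. Prox1, a homeobox factor of lung neuroendocrine cells, stood at 280 and 191 TPM. Nkx2-1, the lung and thyroid homeobox factor, stood at 187 and 206 TPM, and Foxa2, a forkhead factor of foregut endoderm, at 133 and 153 TPM. Its relative Foxa1 was lower, at 73.8 and 58.8 TPM. The zinc finger factors Myt1 (99.97 and 112 TPM) and St18 (66.1 and 69.9 TPM) were both expressed. Isl1, a LIM homeobox factor of endocrine and neuronal cells, stood at 30.6 and 34.7 TPM and Nkx2-2 at 35.4 and 26.7 TPM. These values place a lung factor, foregut factors and neuronal factors in the same libraries.

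A list of 10 factors linked to other SCLC subtypes had a median of 0.289 TPM, beside 3.48 TPM for all protein-coding genes. No member of the list reached 10 TPM in both libraries. Neurod1, which defines the SCLC-N subtype, was expressed at 9.01 and 8.43 TPM, far below Insm1 in both libraries. Pou2f3, the tuft cell factor that defines the SCLC-P subtype, held 0 and 0.0371 TPM. Yap1 stood at 0.208 and 0.298 TPM, and its partner Wwtr1 at 0.606 and 0.510 TPM. Ascl2 and Atoh1 were at 0 reads in both. Rest stood at 0.173 and 0.127 TPM. Myc was expressed at 5.76 and 3.06 TPM and Mycn at 8.51 and 20.9 TPM, so that Mycl exceeded both in each library. Of the 10 factors in this list, 3 were expressed: Notch2 (11.7 and 6.05 TPM), Myc and Hes1, which is a target of Notch signalling. Hes1 was near the floor, at 1.03 and 3.73 TPM from 6 and 14 estimated reads. At a limit of 2 TPM, 2 of the 10 were expressed. Notch1 lay at 0.215 and 0.437 TPM. Hes6, a member of the Hes family that opposes Hes1, stood at 229 and 339 TPM.

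Of 24 genes of dense-core granules and synaptic vesicles, 22 were expressed and 8 stood at 100 TPM or more in both libraries, with a median of 59.6 TPM. Uchl1, a neuronal deubiquitinase used as a neuroendocrine marker, led the list at 451 and 684 TPM. Ddc, which makes dopamine and serotonin from their precursors, stood at 330 and 428 TPM, and Cpe, the carboxypeptidase that trims peptides in granules, at 348 and 315 TPM. The granin Scg3 stood at 230 and 202 TPM, Chgb at 75.0 and 67.0 TPM and Scg2 at 7.00 and 10.4 TPM. The convertases that cut prohormones were expressed, with Pcsk1 at 66.6 and 48.5 TPM and Pcsk2 at 26.3 and 31.4 TPM. Ncam1, a surface marker of neuroendocrine tumors, stood at 354 and 153 TPM and differed more between the libraries than Chga did. Dll3, the inhibitory Notch ligand found on SCLC cells, stood at 48.1 and 63.5 TPM. The vesicular amine transporters were low by comparison, with Slc18a1 at 1.45 and 1.66 TPM and Slc18a2 at 5.07 and 3.18 TPM. The 2 silent genes of the list, Stx1a of the vesicle fusion machinery and Stmn2, a tubulin-binding protein of growing axons, held 0 reads in both libraries.

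The granule machinery stood beside few peptide genes. Of 40 genes for peptide hormones and neuropeptides, 7 were expressed (17.5%, beside 53.8% of all protein-coding genes), 29 were silent and 27 held 0 reads in both libraries. After Calca, the highest were Ghrl, which encodes ghrelin, at 23.9 and 13.4 TPM, Grp, which encodes the bombesin-like peptide of lung neuroendocrine cells, at 14.7 and 18.8 TPM, and Gnrh1, the gonadotropin-releasing hormone gene, at 11.2 and 11.1 TPM. Vgf stood at 3.96 and 8.47 TPM, Nmb at 6.78 and 3.72 TPM and Pmch at 2.73 and 1.67 TPM. Genes for somatostatin (Sst), neuropeptide Y (Npy), substance P (Tac1), galanin (Gal), neurotensin (Nts), vasoactive intestinal peptide (Vip), gastrin (Gast) and the enkephalins (Penk) were among those at 0 reads in both. Pomc, which encodes the precursor of ACTH, stood at 0.321 and 3.13 TPM and was low by the rule.

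Of 15 pan-neuronal genes, 14 were expressed, with a median of 68.0 TPM. The RNA-binding proteins Elavl3 (332 and 208 TPM), Elavl4 (94.4 and 75.5 TPM) and Elavl2 (76.2 and 59.8 TPM) were all present, as were the neuronal tubulin Tubb3 (262 and 263 TPM, near-identical in the libraries) and the intermediate filament Ina (276 and 244 TPM). Map2 stood at 205 and 154 TPM and Dcx, of migrating neurons, at 91.9 and 83.5 TPM. Stmn2 was the silent member. Srrm4, the splicing factor of neuronal microexons, named after its values were seen, stood at 46.6 and 38.1 TPM.

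Genes that give a neuron its transmitter were at low levels. Of 16 such genes, 3 were expressed, the highest of them Slc18a3, the vesicular acetylcholine transporter, at 2.36 and 2.68 TPM. Gad1, which makes GABA, stood at 2.43 and 1.24 TPM and Th, the first enzyme of catecholamine synthesis, at 1.85 and 1.02 TPM. The glutamate transporter Slc17a6, the serotonin enzyme Tph2, and Dbh, Slc6a3 and Slc6a4 held 0 reads in both. The shares of transmitter receptor and channel families ranged from 18.8% to 60.0%, beside 53.8% of all protein-coding genes. Of 16 nicotinic receptor genes 3 were expressed, led by Chrnb2 (36.0 and 31.0 TPM). Of 19 glutamate receptor and related genes 11 were expressed, led by Grina (151 and 146 TPM) and Grik5 (96.9 and 97.5 TPM), and of 19 GABA-A receptor genes 8 were expressed, among them Gabra2 (21.3 and 17.6 TPM). Of 10 calcium channel alpha subunits 6 were expressed, among them Cacna1h (70.5 and 48.4 TPM) and Cacna1a (61.6 and 35.5 TPM). Of 17 synaptotagmins 10 were expressed, led by Syt7 (264 and 160 TPM).

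**Figure D2:**
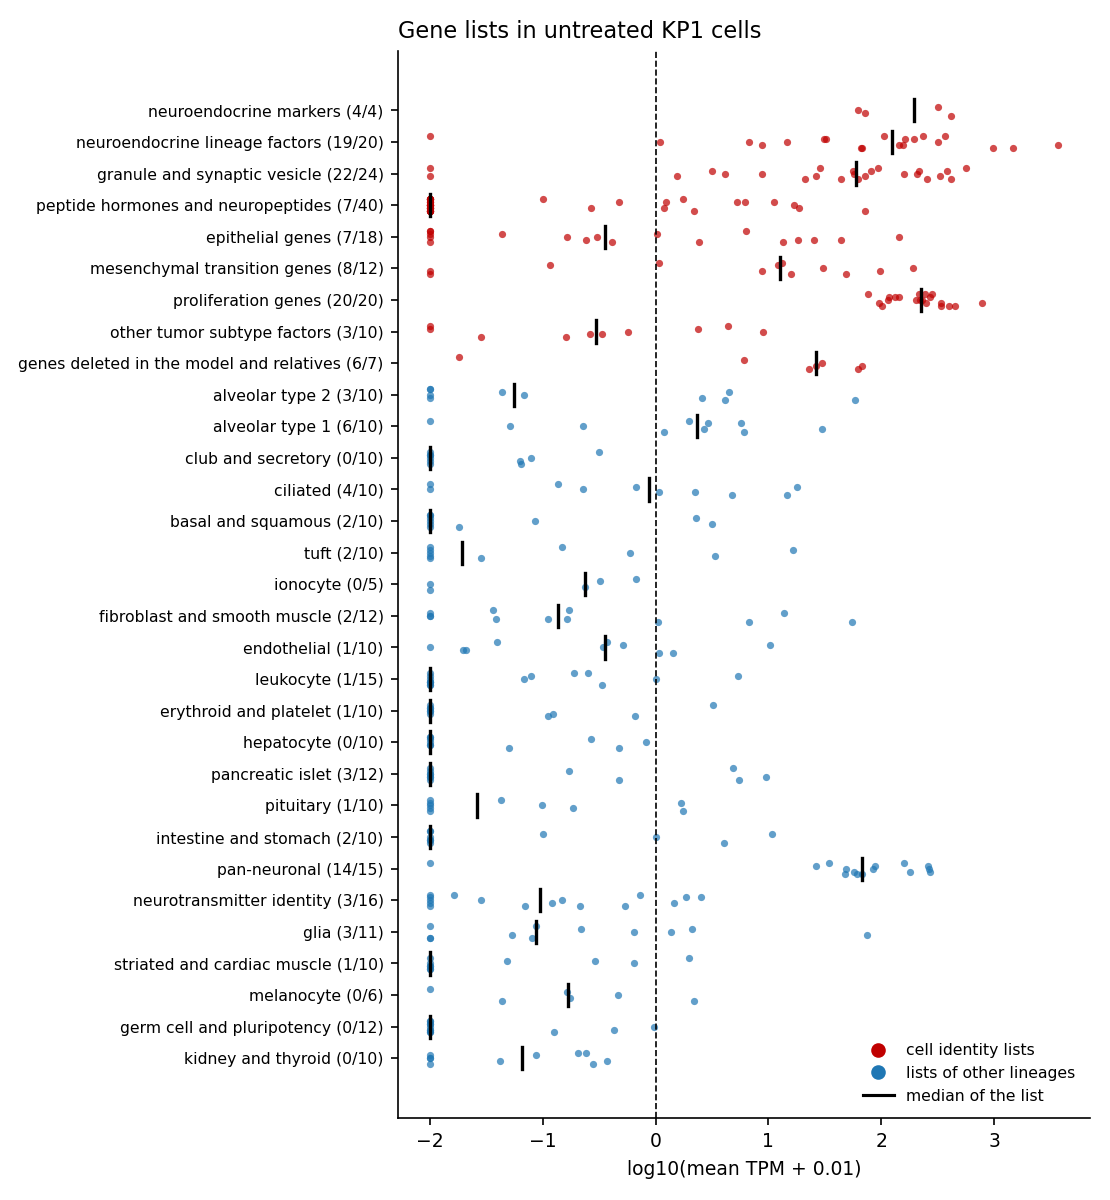
Each point is a gene, placed by log10 of its mean TPM over the 2 untreated libraries plus 0.01, with red for cell identity lists, blue for lists of other lineages, a black bar at each list's median and the number expressed of the number in the table beside its name; the dashed line marks 1 TPM. The lineage factors (19 of 20), granule genes (22 of 24), proliferation genes (20 of 20) and pan-neuronal genes (14 of 15) have medians right of the line, whereas the peptide (7 of 40), epithelial (7 of 18) and other subtype (3 of 10) lists have medians left of it.

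The epithelial list was divided. Of 18 genes, 7 were expressed, 5 were low and 6 were silent, with a median of 0.349 TPM. Junction proteins were present: Jup, which encodes plakoglobin, stood at 151 and 137 TPM, the tight junction claudin Cldn3 at 42.5 and 44.9 TPM, the desmosomal Dsp at 30.3 and 20.1 TPM, and Epcam, an epithelial adhesion molecule, at 10.0 and 16.8 TPM. Cdh1, which encodes E-cadherin, stood at 0.421 and 0.0415 TPM. The simple epithelial keratins were at or near the floor, with Krt8 at 0 and 0.589 TPM, Krt18 at 0.828 and 1.22 TPM and Krt19 at 0 in both. The epithelial splicing factors Esrp1 and Esrp2 and the claudin Cldn4 were at 0 reads in both libraries. Over the whole keratin family, 3 of 53 genes were expressed and 44 were silent. Krt80 (17.6 and 3.16 TPM), Krt7 (5.27 and 7.25 TPM) and Krt10 (4.36 and 6.06 TPM) were those expressed.

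Of 12 genes linked to mesenchymal transition, 8 were expressed, with a median of 12.6 TPM. Cdh2, which encodes N-cadherin, stood at 202 and 181 TPM (mean 191 ± 15.3, SD, n = 2), so its level exceeded that of Cdh1 in both libraries. The Cdh1 repressors Zeb1 (117 and 77.5 TPM) and Zeb2 (34.7 and 26.0 TPM) and the bHLH factor Twist1 (39.7 and 58.3 TPM) were expressed, and Snai2 stood at 11.7 and 14.5 TPM. Vim, the mesenchymal filament vimentin, stood at 16.2 and 15.7 TPM, below Cdh2 and Zeb1. Axl and Twist2 were at 0 reads in both.

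All 20 proliferation genes were expressed and 16 stood at 100 TPM or more in both libraries, with a median of 225 TPM. Top2a, the topoisomerase of dividing cells, stood at 774 and 791 TPM (mean 782 ± 12.5, SD, n = 2, rank 134), and Mki67 at 593 and 299 TPM. The replicative helicase gene Mcm6 stood at 406 and 390 TPM, Pcna at 282 and 395 TPM and Ezh2, the Polycomb methyltransferase, at 247 and 240 TPM. The lowest of the list was Bub1, a checkpoint kinase, at 73.4 and 79.5 TPM.

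The tumor suppressor genes that give the model its name still produced reads. Rb1 stood at 58.1 and 65.8 TPM, and Trp53 at 4.01 and 7.999 TPM (97 and 179 estimated reads). The deleted exons of these alleles are not stated in the sources used here, and a sum over transcripts does not show which exons the reads came from, so these values are no check of the mutations. The relatives Rbl1 (28.3 and 24.7 TPM), Rbl2 (28.0 and 31.8 TPM) and Trp73 (23.9 and 22.2 TPM) were expressed, and Trp63 was silent. Of the Y-linked genes, Eif2s3y (110 and 77.4 TPM), Ddx3y (39.3 and 39.1 TPM), Kdm5d (23.0 and 19.2 TPM) and Uty (10.2 and 15.3 TPM) were expressed, and Sry was at 0.

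Genes of other lineages were mostly low or silent. Over 21 lists without the pan-neuronal list, 35 of 218 genes were expressed (16.1%, beside 53.8% of all protein-coding genes), 121 were silent (55.5%, beside 29.5%), 8 reached 10 TPM in both libraries and none reached 100 TPM in both. No gene was expressed in the lists for club and secretory cells (10 genes), ionocytes (5), hepatocytes (10), melanocytes (6), germ cells and pluripotency (12) and kidney and thyroid (10). Scgb1a1, Scgb3a1, Scgb3a2 and Cyp2f2 of club cells, Alb (0 and 0.0804 TPM) of liver, Pou5f1 of pluripotent cells and Pax2 of kidney were at or near 0. Basal cell genes Krt5, Krt15, Krt17 and Dsg3 were at 0 reads in both, and in that list Ngfr (3.33 and 2.96 TPM) and Pkp1 (2.09 and 2.43 TPM) were expressed.

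Genes of the alveolar epithelium were mixed. Of 10 type 2 genes, 3 were expressed: Abca3, the lipid transporter of lamellar bodies, at 72.7 and 43.2 TPM, Sftpc, which encodes surfactant protein C, at 2.87 and 5.41 TPM, and Etv5 at 4.06 and 4.86 TPM. Sftpa1, Lamp3, Slc34a2 and Lyz1 were at 0 reads in both. Of 10 type 1 genes, 6 were expressed (60%, beside 53.8% of all protein-coding genes), with a median of 2.33 TPM for the list. At a limit of 2 TPM, 3 of the 10 were expressed. Rtkn2 led at 31.1 and 28.8 TPM and was the only member to reach 10 TPM in both libraries. Cav1 was at 0, and Ager, the receptor that defines these cells, stood at 0.171 and 2.18 TPM. The level of Abca3 exceeded that of every other gene in the lists of alveolar, club, ciliated and basal cells.

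Markers of cells that share a tumor with SCLC were checked in these cultures. In the leukocyte list 1 of 15 genes was expressed, the lysosomal Cd68 (4.05 and 6.62 TPM). Csf1r, Adgre1, Cd3e, Tyrobp, Ncr1, S100a8 and Cd74 held 0 reads in both libraries, and Ptprc, the pan-leukocyte phosphatase, stood at 0.498 and 0.157 TPM. The 15 genes together summed to 5.70 and 8.73 TPM. In the endothelial list 1 of 10 was expressed, the receptor Tek (9.43 and 11 TPM), and Cdh5 stood at 0 and 0.0190 TPM. Of 12 fibroblast and smooth muscle genes 2 were expressed, Pdgfra (53.7 and 56.7 TPM), the receptor for PDGF, and Tagln (15.0 and 12.3 TPM). Col3a1, Dcn and Acta2 were at 0 reads. Col1a1 stood at 13.5 TPM in replicate 2 and 0.0249 TPM in replicate 3, which were 33 and 2 estimated reads. The globin genes Hba-a1, Hba-a2 and Hbb-bt were at 0.

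Islet hormone genes were silent. Of 12 islet genes, 3 were expressed, among them the factors Pax6 (10.5 and 8.53 TPM) and Mafa (4.51 and 5.24 TPM), whereas Ins1, Ins2, Gcg, Sst and Ppy held 0 reads. Of 10 pituitary genes, 1 was expressed, the hormone gene Tshb, at 1.10 and 2.24 TPM. In the intestinal list Muc2, a secreted mucin, stood at 11.9 and 9.83 TPM and Lgr5, a stem cell receptor, at 4.12 and 3.93 TPM, while Cdx1 and Cdx2 were at 0. Of 10 tuft cell genes, Dclk1 (18.2 and 14.9 TPM) and the channel Trpm5 (3.59 and 3.08 TPM) were expressed and Gnat3, Il25 and Gfi1b were at 0. Among glial genes Mbp stood at 81.8 and 67.8 TPM, while Gfap, Olig1 and Olig2 were at 0. Of 10 genes of ciliated cells, 4 were expressed: Tppp3 (15.1 and 20.9 TPM), Ccdc39 (15.4 and 13.8 TPM), Foxj1 (4.79 and 4.63 TPM) and Rsph1 (2.60 and 1.84 TPM). Among 10 genes of striated and cardiac muscle, Myh1 (2.92 and 1.01 TPM) was expressed and Myod1 and Myog were at 0. Of 10 genes of red cells and platelets, Itga2b (3.41 and 3.03 TPM) was the member expressed.

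The study examined signals between irradiated SCLC cells and macrophages, so the unirradiated level of such genes was measured. Of 20 cytokine genes that recruit or activate macrophages, 3 were expressed, 2 were low and 15 were silent. Mif stood at 599 and 954 TPM (mean 776 ± 251, SD, n = 2). Its main transcript matches an overlapping antisense gene, C230062I16Rik, at 99.4% identity over 93.4% of its length. Whether Salmon counted that gene was not checked, so it is not known if they shared reads. Ddt, a relative of Mif, stood at 5.90 and 29.6 TPM, and the chemokine Cx3cl1 at 1.83 and 3.11 TPM. Csf1, the growth factor of macrophages, was low at 0.702 and 0.813 TPM. Ccl2, Ccl3, Ccl4, Ccl5, Ccl7, Csf2, Csf3, Il6, Il1b and Tnf were at 0 reads in both libraries. The interferon family held no expressed gene, with 21 of 21 silent, and no Toll-like receptor was expressed of 12. Named after their values were seen, Cd47, the surface signal that restrains phagocytosis, stood at 68.9 and 61.9 TPM and Calr, which encodes calreticulin, at 431 and 515 TPM. Beta-2-microglobulin (B2m), the common chain of MHC class I, stood at 18.7 and 30.7 TPM.

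The Hox genes, which record position along the body axis, were expressed from 2 of their 4 clusters. In the Hoxb cluster (chromosome 11) 8 of 10 genes were expressed and in the Hoxd cluster (chromosome 2) 8 of 9. In the Hoxa cluster (chromosome 6) none of 11 was expressed and 9 were silent, and in the Hoxc cluster (chromosome 15) none of 9 was expressed and 7 were silent. Hoxd11 was highest at 276 and 233 TPM (mean 254 ± 29.9, SD, n = 2), followed by Hoxd8 at 164 and 183 TPM and Hoxb9 at 141 and 144 TPM. Within the Hoxb cluster the level was lowest in Hoxb4 (5.33 and 6.59 TPM) among the expressed genes and highest in Hoxb9, the last gene before the silent Hoxb13. In the Hoxd cluster high and low genes were interspersed, with Hoxd9 at 8.76 and 9.63 TPM between Hoxd8 and Hoxd10 (83.9 and 116 TPM), and Hoxd12 at 0 reads between Hoxd11 and Hoxd13 (11.4 and 10.6 TPM). The highest gene of the Hoxa and Hoxc clusters, Hoxc4, which was low by the rule, stood at 0.637 and 0.373 TPM.

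**Figure D3:**
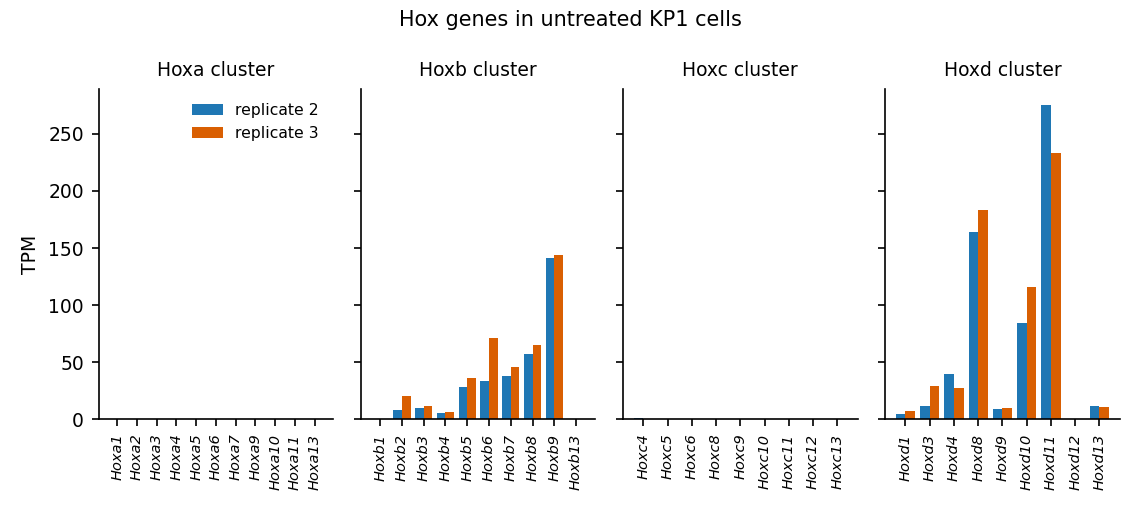
TPM of every Hox gene (bars from 0, linear axis) in replicate 2 (blue) and replicate 3 (orange), by cluster. The Hoxb and Hoxd clusters carry bars up to 144 and 276 TPM, and no Hoxa or Hoxc gene exceeds 0.637 TPM in either library.

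The Pax, Sox, LIM homeobox, POU, neurogenic bHLH, Fox, Gata and Tbx families had 20% to 57.9% of their genes expressed, beside 53.8% of all protein-coding genes. Of 9 Pax genes 4 were expressed, with Pax5, known from B cells and midbrain, at 70.4 and 52.8 TPM. Of 19 Sox genes 11 were expressed, including the neural progenitor factor Sox1 at 90.3 and 83.6 TPM, while Sox2, its relative, stood at 1.01 and 1.15 TPM. Of 12 LIM homeobox genes 6 were expressed, with Lhx1 at 80.3 and 78.9 TPM and Lhx2 at 52.6 and 64.2 TPM. Of 15 POU genes 7 were expressed, led by Pou2f2 at 178 and 82.8 TPM. Of 25 neurogenic bHLH genes 5 were expressed, among them Atoh8 (54.8 and 47.4 TPM) and Neurod4 (45.8 and 44.4 TPM). Of 44 Fox genes 20 were expressed, led by Foxj3 at 1109 and 1070 TPM and Foxp1 at 313 and 310 TPM. Of 6 Gata genes 2 were expressed, led by Gata2 at 6.68 and 7.16 TPM, and of 13 Tbx genes 4, led by Tbx1 at 47.9 and 59.5 TPM. Of 391 genes named as Zfp zinc finger genes, 325 were expressed (83.1%, beside 53.8% of all protein-coding genes).

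Large families of specialised tissues held few expressed genes. Of 1135 olfactory receptor genes 17 were expressed (1.5%), of 320 vomeronasal receptor genes 3, of 57 keratin-associated protein genes 1, and of 38 taste receptor, 64 defensin, 34 Rhox and 26 kallikrein genes none. Many of the receptor genes were low and not silent, 357 olfactory and 121 vomeronasal, beside 3648 of all 21830 protein-coding genes. Olfr1033 (164 and 164 TPM from 160 and 138 estimated reads), Olfr784 (146 and 96.9 TPM) and Olfr1388 (157 and 82.3 TPM) stood far above the rest of the olfactory receptors. Of 33 interleukin genes 3 were expressed, the highest Il4 at 12.05 and 13.1 TPM from 49 and 48 estimated reads. Of 36 chemokine genes 4 were expressed, led by Ccl27a (22.2 and 61.6 TPM) and Ccl25 (15.1 and 22.3 TPM). Of 25 MAGE and SSX genes, which many tumors switch on, 1 was expressed (Ssxb5, 3.39 and 2.72 TPM). In the clustered protocadherins, which give neurons their surface identity, 25 of 57 were expressed, led by Pcdhgc3 at 87.3 and 76.0 TPM. Collagens were sparse, with 6 of 44 expressed, led by the basement membrane genes Col4a1 (29.5 and 22.7 TPM) and Col4a2 (26.6 and 18.1 TPM).

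The highest levels were concentrated in few genes. The 100 highest genes held 28.7% of all TPM in replicate 2 and 27.3% in replicate 3, and the 1000 highest held 58.0% and 57.6%. The first was Ybx1, which encodes a protein that binds mRNA and Y-box promoter elements, at 48048 and 29763 TPM, or 4.80% and 2.98% of all TPM. Eef1a1, a translation elongation factor, followed among nuclear coding genes at 10877 and 9331 TPM. Cap1, a regulator of actin turnover, stood at 8959 and 6964 TPM, and Ptma at 4375 and 6432 TPM. Of the 30 highest nuclear coding genes, 8 encode cytosolic ribosomal proteins. The remaining members of that group included the cytoskeletal genes Actb (5139 and 2599 TPM), Tubb5 (2447 and 2677 TPM) and Stmn1 (1285 and 3247 TPM), the chaperones Hsp90ab1 (2921 and 3049 TPM) and Hspa8 (2475 and 2168 TPM), and Rcc2 (3218 and 2828 TPM), a regulator of the mitotic spindle.

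Some of the highest values are uncertain because near-identical copies can share their reads where Salmon counted both. The search covered all annotated transcripts, and whether each copy found was among those counted was not checked. Of the 40 highest genes, a search of the main transcript found a copy at 95% identity or more over at least 80% of its length for 14, among them Gapdh, Hspa8, Rpl13 and several genes of the mitochondrial genome. Gm12895, a processed pseudogene of 226 bases on chromosome 4, was listed at 27960 and 10037 TPM from 15793 and 5457 estimated reads, and Gm12896 matches it at 100% identity. For Ybx1 the best match, CT009755.1, had 94.5% identity over 59.6% of the length, and Syp shares 33.9% of its main transcript with Gm14703 at 100% identity. Gm20594 (4438 and 1825 TPM) matches the mitochondrial ribosomal RNA gene mt-Rnr2 at 88.4% identity. The 13 genes of the mitochondrial genome with values here all code for protein, so mt-Rnr2 had no value of its own. Whether its reads fell on Gm20594 was not tested. Slc38a6, an amino acid transporter gene named after its values were seen, was listed at 1985 and 1380 TPM, and 3 other genes carry its main transcript at the same limits, 98.3% for Gm42860.

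Chromosome 4 carried a larger share of the transcriptome than any other. It held 6.04% of nuclear protein-coding genes and 15.5% and 13.9% of their TPM, and without Ybx1 it still held 10.7% and 10.9%. The next was chromosome 11 with 7.96% and 8.37% of TPM from 7.51% of the genes. The high genes lay together. In windows of 2 Mb with at least 8 expressed genes, the median level of the expressed genes had a median of 29.7 TPM over 536 windows and a 95th percentile of 61.0 TPM. With TPM averaged over the libraries, the 5 windows with a median above 100 TPM were all on chromosome 4. They lay at 120 to 122 Mb (349 TPM, 14 expressed genes, or 133 TPM over all 21 coding genes there), 122 to 124 Mb (144 TPM, 15 genes), 140 to 142 Mb (120 TPM, 23 genes), 136 to 138 Mb (113 TPM, 20 genes) and 82 to 84 Mb (107 TPM, 8 genes). The next window, on chromosome 17, had a median of 99.4 TPM, and 8 of the 11 highest windows were on chromosome 4. In neither library alone were all windows above 100 TPM on chromosome 4. Chromosome 17 reached 102 TPM at 74 to 76 Mb in replicate 2 and 104 TPM at 64 to 66 Mb in replicate 3. The window at 82 to 84 Mb had 117 TPM in replicate 2 and 95.9 TPM in replicate 3. The other listed windows of chromosome 4 stayed above 100 TPM in each library.

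Around Mycl (chromosome 4, 122995652 to 123002485) neighbours of unrelated function shared high levels. Cap1 lies 0.137 Mb before Mycl. On the other side, Trit1, a tRNA-modifying enzyme, stood at 706 and 1065 TPM and Ppie, a peptidyl-prolyl isomerase, at 1850 and 2331 TPM. Between 2 and 5 Mb before Mycl lay Ebna1bp2 (1364 and 1552 TPM), Ybx1, Ppih (796 and 755 TPM), Foxj3, Ctps (1190 and 1161 TPM), which makes CTP, and Nfyc (1217 and 1155 TPM), a subunit of the CCAAT-binding factor. A gene better known from neurons shared the run, with Rims3, of the presynaptic active zone, at 520 and 524 TPM. The run was not uniform: the olfactory receptor genes and Heyl, Bmp8a and Edn2 within it were silent or low. Nfib lay in a separate high window 40.7 Mb away, next to Psip1 (1855 and 2744 TPM) and Snapc3 (632 and 792 TPM). DNA copy number was not measured in these samples, so copy number and transcription of each copy cannot be told apart.

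**Figure D4:**
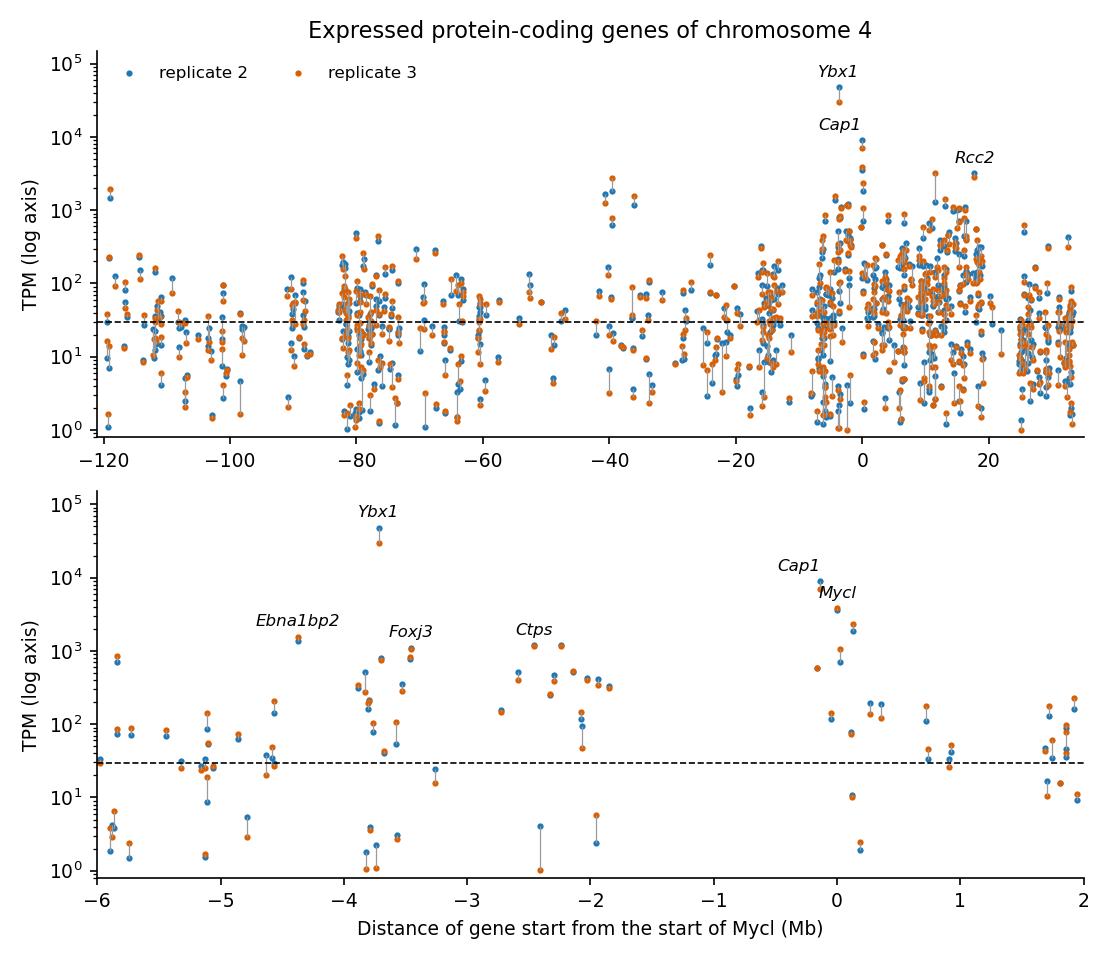
TPM (log axis) of expressed protein-coding genes of chromosome 4 against the distance of their start from that of Mycl in Mb, over the whole chromosome (top) and close to Mycl (bottom), with replicate 2 in blue, replicate 3 in orange and a dashed line at 29.9 TPM, the median of expressed nuclear coding genes. Ybx1 (48048 and 29763 TPM) and Cap1 (8959 and 6964 TPM) stand highest, and many genes near Mycl lie above the line in both libraries.

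Expressed and silent genes differed in the sequence before their start sites. RefSeq promoters on GRCm38.p6 were matched by symbol to 16466 protein-coding genes (20093 promoters), and 250 bases before each start were read. The ratio of observed to expected CpG dinucleotides had a median of 0.735 at promoters of expressed genes, 0.815 at those of genes at 100 TPM or more, 0.317 at those of low genes and 0.194 at those of silent genes. A GC box (GGGCGG, either strand) was found in 58.7% of promoters of expressed and 16.5% of those of silent genes, beside 44.2% of all. A TATA box (TATAAA, either strand, anywhere in the window) was found in 6.00% of promoters of expressed and 21.8% of those of silent genes, beside 11.2% of all. A CCAAT box (CCAAT, either strand) was about as frequent in both, at 35.8% and 35.3%. These shares describe the windows and no factor's binding was measured.

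Promoter windows were read for Chga, Calca and Syp among the markers. The windows of the markers Chga and Calca and of Krt8, a keratin gene of simple epithelia that was low here, follow 5′ to 3′ in the direction of the gene, with GC boxes, CCAAT boxes, the E-box CAGCTG and the cyclic AMP response half-site TGACG (both strands for each) in capitals. They lie at chr12:102554691-102554940 (plus strand), chr7:114636358-114636607 (minus strand) and chr15:102004343-102004592 (minus strand).
Chga: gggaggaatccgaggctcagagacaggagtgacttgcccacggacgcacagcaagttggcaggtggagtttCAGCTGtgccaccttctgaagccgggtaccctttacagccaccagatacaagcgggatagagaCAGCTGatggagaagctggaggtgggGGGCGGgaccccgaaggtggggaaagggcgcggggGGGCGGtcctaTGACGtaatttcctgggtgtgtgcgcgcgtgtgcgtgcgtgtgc
Calca: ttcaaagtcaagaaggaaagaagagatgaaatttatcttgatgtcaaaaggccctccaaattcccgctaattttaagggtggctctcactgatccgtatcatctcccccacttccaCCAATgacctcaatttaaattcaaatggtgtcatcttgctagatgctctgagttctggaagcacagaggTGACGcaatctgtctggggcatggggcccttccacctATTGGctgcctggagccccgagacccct
Krt8: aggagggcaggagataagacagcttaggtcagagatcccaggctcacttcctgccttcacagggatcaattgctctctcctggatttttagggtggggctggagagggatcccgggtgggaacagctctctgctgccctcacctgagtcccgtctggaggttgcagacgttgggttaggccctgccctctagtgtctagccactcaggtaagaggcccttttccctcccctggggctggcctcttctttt
The Chga window held 2 GC boxes, 2 E-boxes and 1 half-site with a CpG ratio of 0.714, and the Calca window held 2 CCAAT boxes and 1 half-site with a CpG ratio of 0.281. The Syp window, not printed, held 2 GC boxes and none of the other motifs, with a CpG ratio of 0.557. None of these motifs was found in the Krt8 window, whose CpG ratio was 0.143. The E-box was present in 12.3% and the half-site in 20.7% of all promoters, and in 11.9% and 26.7% of those of expressed genes.

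The libraries agreed in rank and differed in a pattern tied to transcript length and in how many transcripts had reads. Across the 11751 expressed protein-coding genes, log2 TPM of the libraries correlated with r = 0.956 (Pearson) and rho = 0.959 (Spearman), a description across genes that are not independent replicates. Of the 8751 genes at 10 TPM or more in both, 96.4% lay within 2-fold, with an SD of the log2 ratio of 0.457. With these genes split into 5 equal classes by transcript length, the median log2 ratio of replicate 3 over replicate 2 went from 0.26 in the shortest class to −0.22 in the longest. Genes of the mitochondrial genome held 3.97% of TPM in replicate 2 and 6.52% in replicate 3, with mt-Co1 at 2705 and 7444 TPM. Replicate 2 held more estimated reads than replicate 3 but had fewer transcripts with any reads, 43372 beside 54577. Silent protein-coding genes numbered 7459 in replicate 2 alone and 7021 in replicate 3 alone. The cause of these differences was not tested. The largest ratios among genes above 10 TPM were those of Grip2, a scaffold protein of glutamate receptors, at 402 and 62.7 TPM, of Gm4707 at 60.8 and 10.0 TPM, and of Pomp, a proteasome assembly factor, at 26.8 and 143 TPM. The rest of the 10 largest ratios belonged to Psenen, Anapc13, Uqcr11, Btbd6, Gm21887, Tpra1 and Fastkd3 and ran from 4.06-fold to 5.27-fold.

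**Figure D5:**
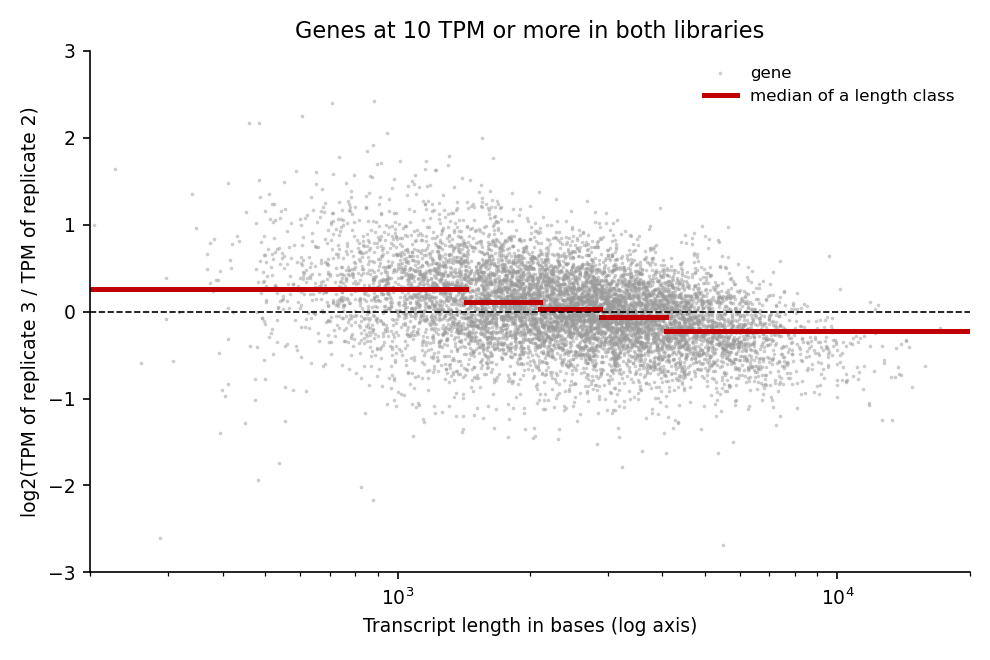
Each grey point is a protein-coding gene at 10 TPM or more in both untreated libraries, placed by transcript length in bases (log axis) and log2 of its TPM in replicate 3 over replicate 2, with red bars at the median of each of 5 equal classes by length. The medians step down from 0.26 for the shortest class to −0.22 for the longest.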

How the data were processed

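RNA of untreated KP1 cells was sequenced by the authors with an Illumina platform. The submitters' processing notes name Salmon 0.8.2, DESeq2 1.22.2 and mm10. The authors deposited, for each library and transcript, the expected counts of Salmon, its estimate of the reads from that transcript, which may be fractional. The authors also deposited TPM, which is scaled for transcript length and for the total of the library. The annotation release used by the authors is not given in the sources used here.

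Of 113116 transcripts, 112762 (99.7%) were matched without version suffix to GENCODE M21 on GRCm38, carrying 99.9% of the estimated reads in both libraries. TPM and estimated counts were summed per gene over 35056 genes. Where 2 genes share a symbol, the higher was used. Long noncoding RNAs such as Xist and Malat1 are not described here. Only 12 of the 35056 genes were annotated as long intergenic noncoding RNA. The sums and calls were tested on simulated data.

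Genes were described in 34 lists and 42 families matched by symbol. The members and lists were chosen with earlier results of these data known, and some family patterns were corrected after their members were seen, so no list serves as independent evidence. Named genes were the 4 markers, the 30 highest nuclear coding genes, the 20 highest outside ribosomal, translation and histone genes, the leading and defining silent genes of each list, the 3 highest of each family and the 10 largest ratios between libraries above 10 TPM. Genes of the chromosome 4 run, some family members below the third and the Hox genes were picked outside this rule, with their values in view. Near-identical copies were sought with blastn 2.17.0 over the 40 highest genes and the markers. Promoters came from RefSeq. Tables were made in Python 3.11.15 (pandas 2.3.3, scipy 1.17.1) and plots with matplotlib 3.10.9. Some genes that the rule names are not reported here. The irradiated and single-cell samples were not used here, and alternatives are given in the closing section.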

Additional observations from a re-analysis of the deposited data

How the results depend on the processing

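Of the main values, those for the number of expressed and silent genes and for the members expressed in the identity lists and in the other lineage lists stayed within 1.5 times under each alternative run (0.5 or 2 TPM, 1 CPM, rescaled TPM, 0 reads or under 0.1 TPM for silent genes, each library alone). Expressed protein-coding genes ranged from 11109 to 12427 and silent ones from 5455 to 7459. Rescaling TPM over nuclear protein-coding genes moved Chga from 416 to 467 TPM. The share of the 100 highest genes was 28.0% as a mean, 19.8% of estimated reads and 25.5% without genes of the mitochondrial genome, the last chosen after seeing the data. The median of the window at 120 Mb of chromosome 4 was 349 TPM over expressed genes and 133 TPM over all coding genes, also chosen after seeing the data. Calca ranked 2791 by TPM and 7951 by estimated reads, which are not scaled for its short transcript, and 4600 by its highest transcript. Syp ranked 3257, 5403 and 4355 in the same order. Of 220 further values (list counts and marker ranks), 34 moved, mostly in lists with few expressed members: the peptide list had 4 expressed genes at 1 CPM instead of 7. No paired analysis was possible because there was 1 group. Depth limits the silent call: 3 reads on a coding transcript of median length were worth 0.124 and 0.137 TPM, and more on shorter transcripts such as those of peptide genes. Depth is not the only limit, because replicate 2, the deeper library, had fewer transcripts with reads.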
